A study of Mus musculus with 4 samples.

Results

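Transcripts of 7 heme synthesis enzymes and of the transferrin receptor were followed through 4 bone marrow RNA-seq libraries. The 8 genes, Alas1, Alad, Uros, Urod, Cpox, Ppox, Fech and Tfrc, were taken by symbol, and each had 1 row in every library, out of 12417 genes kept from the series. The 4 libraries were 1 each of hematopoietic stem cells (HSC, sorted as Lin-c-kit+sca-1+) and common lymphoid progenitors (CLP, sorted with the same markers plus Il-7Ra+), from wild-type (WT) and GRK6-/- C57BL/6 mice. GRK6 is a kinase that acts on G protein-coupled receptors, and no other allele or treatment is given for either genotype. Each library pooled cDNA of 13 to 15 cells, picked from 3 to 4 mice and amplified cell by cell through 20 and then 10 PCR cycles. There were no replicates, so a difference between 2 single libraries was given without a test, and only the effects common to both populations or both genotypes were tested. The deposited unit was FPKM, fragments scaled to transcript length and to all mapped fragments. Reverse transcription used a poly(dT) primer, and whether reads covered transcripts evenly was not tested. Levels of different genes are therefore compared below only with that limit.

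Heme is built in a chain of enzymatic steps that begin and end in the mitochondrion. The first step, which joins glycine to succinyl-CoA, is carried out by ALAS1 in most cells and by ALAS2 in erythroid cells. ALAD, UROS and UROD then help to build and trim the porphyrin ring in the cytosol, CPOX and PPOX oxidise it in the mitochondrion, and FECH inserts the iron. The iron is carried in by the transferrin receptor, TFRC, which takes up transferrin from the plasma. Cells that make hemoglobin run this pathway at far higher rates than other cells, whereas all cells need some heme for cytochromes and catalase. The comparison below asks whether these genes follow the erythroid signal of the library labelled GRK6-/- CLP.

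Sequences of 2 kinds are shown, because iron and erythroid factors are known to act on genes of this pathway through such sites. The first are iron-responsive elements, short hairpins with an unpaired C and a CAGTG loop that bind the iron regulatory proteins. Bound in a 3′ UTR they protect the transcript from decay, and bound in a 5′ UTR they block its translation. A search of the sense strand of annotated mouse UTRs (mm9) for a C and a CAGTG loop with 5 paired stem bases between them and after the loop found 4 such elements in the 3′ UTR of Tfrc. They are printed 5′ to 3′ with the bulged C and the loop in capitals, beside 1 element each from the 5′ UTRs of Alas2 and of the ferritin heavy chain gene Fth1 for comparison. All are on the plus strand.
Tfrc chr16:32631305-32631332: aattatCggaagCAGTGccttccataat
Tfrc chr16:32631684-32631711: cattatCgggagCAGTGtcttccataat
Tfrc chr16:32631749-32631776: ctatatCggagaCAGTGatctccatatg
Tfrc chr16:32631796-32631823: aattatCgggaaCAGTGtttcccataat
Alas2 chrX:146982001-146982028: ttggttCgtcctCAGTGcagggcaacag
Fth1 chr19:10057222-10057249: ttcctgCttcaaCAGTGcttgaacggaa
Of 19915 genes with an annotated 3′ UTR, 124 (0.623%) held a match, and Tfrc was the 1 gene with more than 1. In 5′ UTRs, 33 of 19854 genes (0.166%) held a match. None was found in the UTRs of the 7 enzymes listed above, so that Tfrc stood apart from them in sequence. A match is a description of the letters and not a measured binding site.

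The second are promoter windows of 300 bases, from 250 before to 50 after a transcription start, taken from RefSeq (build GRCm38.p6). They were searched on both strands for AGATAA and TGATAA, forms of the site bound by GATA factors such as the erythroid factor GATA1. The search covered 11 promoters of 7 of the 8 genes, and no promoter of Fech was included. The promoters of Cpox and Uros that hold a match are printed with that of Alas2, each 5′ to 3′ along the gene with the matches in capitals. All of these matches lie on the opposite strand, so they read TTATCA or TTATCT here.
Cpox chr16:58669958-58670257 (plus strand): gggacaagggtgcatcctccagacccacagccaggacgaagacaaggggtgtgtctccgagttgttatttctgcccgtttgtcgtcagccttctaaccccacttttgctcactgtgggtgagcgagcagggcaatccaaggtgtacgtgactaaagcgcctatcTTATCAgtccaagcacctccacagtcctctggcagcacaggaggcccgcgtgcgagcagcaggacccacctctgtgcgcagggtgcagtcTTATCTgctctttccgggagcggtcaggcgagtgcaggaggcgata
Uros, second promoter, chr7:133702451-133702750 (minus strand): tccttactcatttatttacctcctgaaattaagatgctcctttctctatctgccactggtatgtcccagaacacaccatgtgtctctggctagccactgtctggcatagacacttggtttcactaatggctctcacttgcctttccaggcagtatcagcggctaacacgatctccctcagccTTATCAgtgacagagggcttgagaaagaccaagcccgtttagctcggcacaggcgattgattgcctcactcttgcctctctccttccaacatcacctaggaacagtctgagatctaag
Alas2 chrX:150547167-150547466 (plus strand): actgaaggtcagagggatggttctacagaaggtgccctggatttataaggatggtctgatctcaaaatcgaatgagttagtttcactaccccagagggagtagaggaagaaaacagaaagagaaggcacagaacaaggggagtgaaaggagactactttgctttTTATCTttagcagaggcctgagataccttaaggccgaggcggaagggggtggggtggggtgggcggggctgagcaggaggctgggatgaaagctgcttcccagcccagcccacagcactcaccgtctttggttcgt
Cpox held 2 matches, which began at -86 and 5 from the start. Uros held 1 in its second promoter, at -68, and Alas2 held 1, at -86. The other 9 promoters, of Alas1, Alad, Uros, Urod, Ppox and Tfrc, held none. Of 32851 mouse promoters of this length, 18.6% held at least 1 match and 3.26% held at least 2. The share of the 11 promoters with a match, 2 of 11, is thus near that of all promoters. The letters CCNCNCCC, part of the site bound by Krüppel-like factors such as KLF1, were found in 10 of the 11 promoters and in 49.5% of all promoters. Some of these 11 windows overlap, and the difference was not tested.

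The libraries differed in depth and in the markers of other cells. Depth was not read from counts, but the steps between low FPKM values gave estimates of 2700000 fragments for WT and 3900000 for GRK6-/- HSC, and 4450000 for WT and 2750000 for GRK6-/- CLP. The study reports more reads for each lineage than these estimates, and the reason for the gap was not tested. Intervals below are 95% Poisson intervals from these estimates. They cover counting error only, since fragments of amplified cDNA are not independent molecules, and not the spread between cells or mice. Il7r, the CLP sorting marker, had no row in WT and 1.08 FPKM in GRK6-/- HSC, and 120 in WT and 75.1 in GRK6-/- CLP. Of the HSC and CLP marker lists, 7 of 8 and 6 of 6 genes had a row, and the CLP list summed to 168 and 118 FPKM in WT and GRK6-/- HSC and to 2731 and 1910 in WT and GRK6-/- CLP. The HSC list summed to 259 and 427 FPKM in the HSC libraries and to 286 and 409 in the CLP libraries. Ly6a, the gene of the sorting marker sca-1, had a value only in joint rows and was not analysed here. Rag2, a recombinase gene of early lymphocytes, had 94.5 FPKM in WT CLP and no row in GRK6-/- CLP. Grk6 itself had 42.7 FPKM in WT and 89.4 in GRK6-/- HSC, and 26.9 in WT and 57.6 in GRK6-/- CLP. It was therefore higher in both libraries labelled GRK6-/-. By the study's description the allele lacks only part of the exons, and 1 value per gene does not show whether the deleted exons were read, so this value does not check the labels. GRK6-/- below means the library so labelled.

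Of the 24 genes on the erythroid list, 20 had a row among the genes kept. Hba-a1, Hbb-b1 and Hbb-b2 had none, so Hba-a2 was the only globin gene on the list with a value. Their summed level was 488 FPKM in WT and 1959 in GRK6-/- HSC, and 226 in WT and 18478 in GRK6-/- CLP. The number of these 20 without a row was 4, 2, 7 and 0 in the same order. The sums do not give the order of each gene, since WT HSC was highest for 1, GRK6-/- HSC for 7, WT CLP for 1 and GRK6-/- CLP for 11. Hba-a2, an alpha globin gene, made up most of the last sum, with 5.98, 53.2, 17.4 and 17220 FPKM, and Slc4a1, the red cell anion exchanger, had 0.0752 FPKM in WT HSC, 50.9 in GRK6-/- CLP and no row in the other libraries. The regulators Klf1 and Gata1 were high in both GRK6-/- libraries. Klf1 had 3.88 FPKM in WT and 51.5 in GRK6-/- HSC, and 0.16 in WT and 73.3 in GRK6-/- CLP. Gata1 had 5.45, 26.1, 0.265 and 15.7 FPKM in that order. Both regulators were thus higher in each GRK6-/- library than in either WT library, whereas Hba-a2 and Slc4a1 were far higher in GRK6-/- CLP than in the other 3 libraries. In such pools, fewer cells of a type and less RNA per cell cannot be told apart.

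B-lineage genes moved with the same library, with 7 of 7 list members past 2-fold higher in GRK6-/- CLP than in WT CLP, where 26.6% of all genes were, and sums of 41.9, 35.5, 239 and 1562 FPKM in HSC and then CLP, with WT before GRK6-/- in each. The megakaryocyte list summed to 150, 13.1, 13.5 and 117 FPKM in that order. The myeloid list summed to 17749, 11215, 9181 and 7632 FPKM. The part of these other cell types in the results below was not tested.

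**Figure D1:**
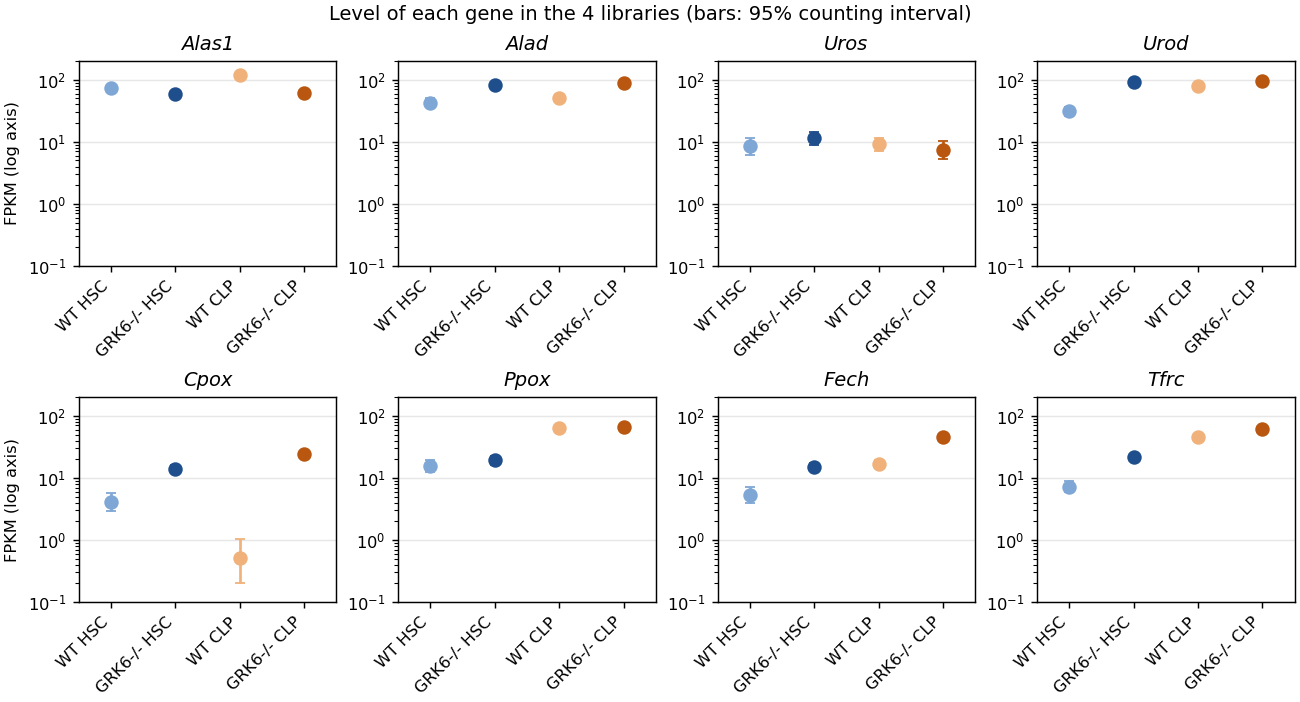
Each panel plots 1 gene, with FPKM on a log axis for the 4 libraries, and bars give the 95% counting interval, hidden by the point where it is narrow. Cpox spans from 0.503 FPKM in WT CLP to 24.1 in GRK6-/- CLP, whereas Uros stays between 7.51 and 11.4.

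The 8 genes fell into 3 kinds by how their level was spread over the libraries. Alas1, Alad and Uros varied little, with a ratio of the highest to the lowest library of 2.02, 2.05 and 1.51. Urod, Ppox, Tfrc and Fech varied by 3.08, 4.24, 8.46 and 8.5-fold and were lowest in WT HSC. Cpox varied by 47.9-fold and was lowest in WT CLP. The GRK6-/- CLP library was the highest of the 4 for 6 of the 8 genes, against 26.7% of the 8246 genes with a row in every library. For Alad, Urod and Ppox among them, it was not apart from the next library beyond counting error. WT HSC was the lowest for 5 of the 8, against 22.5%, though for Alad and Ppox not beyond counting error. Ppox, Fech and Tfrc had 1 order, with both CLP above both HSC and GRK6-/- above WT in each, which 406 of those genes had. Alad and Urod had another, with both GRK6-/- above both WT and CLP above HSC in each, which 324 had.

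Alas1 encodes the first enzyme of the pathway outside the erythroid lineage. It had 74 FPKM in WT and 59 in GRK6-/- HSC, and 119 in WT and 61.8 in GRK6-/- CLP. It was highest in WT CLP and lower in the GRK6-/- library of both populations, the only one of the 8 genes with that direction in both. The level in WT CLP was 1.93-fold that of GRK6-/- CLP (95% counting interval 1.75 to 2.13), and in HSC the corresponding ratio was 1.25 (1.12 to 1.4). The 2 GRK6-/- libraries were not apart beyond counting error. In the annotation (mm9, GENCODE vM1) the gene (Entrez 11655) is at chr9:106135786-106150457 on the minus strand, and 114 exonic bases overlap a gene on the other strand, 4930500F10Rik. Counting by strand is not stated, so reads of overlapping genes cannot be told apart.

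Alas2, the erythroid enzyme for the same step, ran the other way. It had 0.562 FPKM in WT and 2.54 in GRK6-/- HSC, no row in WT CLP and 128 FPKM in GRK6-/- CLP. The first of these values rests on about 3 fragments and the second on about 20, and their ratio of 4.52 has a counting interval of 1.37 to 24.2. In GRK6-/- CLP, Alas2 was thus above Alas1, whereas in the other 3 libraries Alas1 was far above Alas2. Exons of Alas2 share 311 bases with Apex2 on the opposite strand, which had 3.08, 5.08, 11.7 and 22.5 FPKM in HSC and then CLP, with WT before GRK6-/- in each.

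Alad encodes the cytosolic enzyme that joins 2 molecules of aminolevulinic acid into a pyrrole (Entrez 17025, chr4:62170203-62180952, minus strand). Its levels were 42.9 FPKM in WT and 82.2 in GRK6-/- HSC, and 51.2 in WT and 87.9 in GRK6-/- CLP. The libraries split by genotype, with both GRK6-/- values above both WT values and no difference beyond counting error between the populations of 1 genotype. The ratio of GRK6-/- to WT was 1.91 in HSC (1.58 to 2.34) and 1.72 in CLP (1.46 to 2.03), both short of 2-fold.

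Uros closes the chain of pyrroles into a ring (Entrez 22276, chr7:140877926-140901755, minus strand). Its levels of 8.7, 11.4, 9.11 and 7.51 FPKM in HSC and then CLP, with WT before GRK6-/- in each, were the flattest of the 8 genes, and no neighbours in their order were apart beyond counting error. The highest library, GRK6-/- HSC, was 1.51-fold above the lowest, GRK6-/- CLP (1.02 to 2.34). Uros was also the lowest of the 8 genes in GRK6-/- CLP.

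Urod removes carboxyl groups from the ring (Entrez 22275, chr4:116662570-116667018, minus strand). It had 30.9 FPKM in WT and 90.9 in GRK6-/- HSC, and 80.2 in WT and 95.1 in GRK6-/- CLP. WT HSC was low and the other 3 libraries lay close together. GRK6-/- HSC was 2.94-fold above WT HSC (2.42 to 3.61), whereas in CLP the ratio was 1.19 (1.04 to 1.36).

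Cpox, the mitochondrial oxidase that acts next (Entrez 12892, chr16:58670321-58680504, plus strand), had the widest spread. Its levels were 4.16 FPKM in WT and 13.7 in GRK6-/- HSC, and 0.503 in WT and 24.1 in GRK6-/- CLP. All 4 libraries were apart beyond counting error. GRK6-/- CLP was 47.9-fold above WT CLP (23.2 to 123), and the low value rests on about 7 fragments. In HSC the ratio was 3.3 (2.28 to 4.84). This order, GRK6-/- CLP above GRK6-/- HSC, then WT HSC and WT CLP, was that of 412 of the 8246 genes, among them Klf1, and Alas2, with no row in WT CLP, had it too. It was the order of 6 of the 20 erythroid genes with a row, and Gata1 and Hba-a2 were among those with another. The promoter of Cpox was also the one shown above with 2 GATA matches, and whether they bear on this order was not tested.

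Ppox, the oxidase of the following step (Entrez 19044, chr1:173206121-173211317, minus strand), split by population and not by genotype. It had 15.6 FPKM in WT and 19.1 in GRK6-/- HSC, and 64.5 in WT and 66.1 in GRK6-/- CLP. The ratio of GRK6-/- to WT was 1.23 in HSC (0.917 to 1.64) and 1.02 in CLP (0.891 to 1.18). Ppox exons share 791 bases with B4galt3 on the opposite strand, and B4galt3 had 44.9, 7.48, 15.1 and 11 FPKM in HSC and then CLP, with WT before GRK6-/- in each, an order unlike that of Ppox. Whether reads of B4galt3 were counted for Ppox was not tested.

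Fech, which inserts the iron into the ring, is on chromosome 18 (Entrez 14151, 64616204 to 64648720, minus strand). It had 5.4 FPKM in WT and 15.2 in GRK6-/- HSC, and 16.7 in WT and 45.9 in GRK6-/- CLP. The 2 middle libraries were not apart beyond counting error. The genotype ratio was close in both populations, 2.8 in HSC (2 to 4.05) and 2.74 in CLP (2.31 to 3.26), and so was the ratio of CLP to HSC, 3.1 in WT (2.23 to 4.45) and 3.03 in GRK6-/- (2.53 to 3.67).

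Tfrc, the receptor for transferrin-bound iron (Entrez 22042, chr16:32609006-32632880, plus strand), had 7.22 FPKM in WT and 21.6 in GRK6-/- HSC, and 45.6 in WT and 61.1 in GRK6-/- CLP. Its 4 libraries were all apart beyond counting error. The genotype ratio was 2.99 in HSC (2.39 to 3.79) and 1.34 in CLP (1.22 to 1.47). Among the WT libraries CLP was 6.31-fold above HSC (5.12 to 7.89), and among the GRK6-/- libraries 2.82-fold (2.51 to 3.19).

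**Figure D2:**
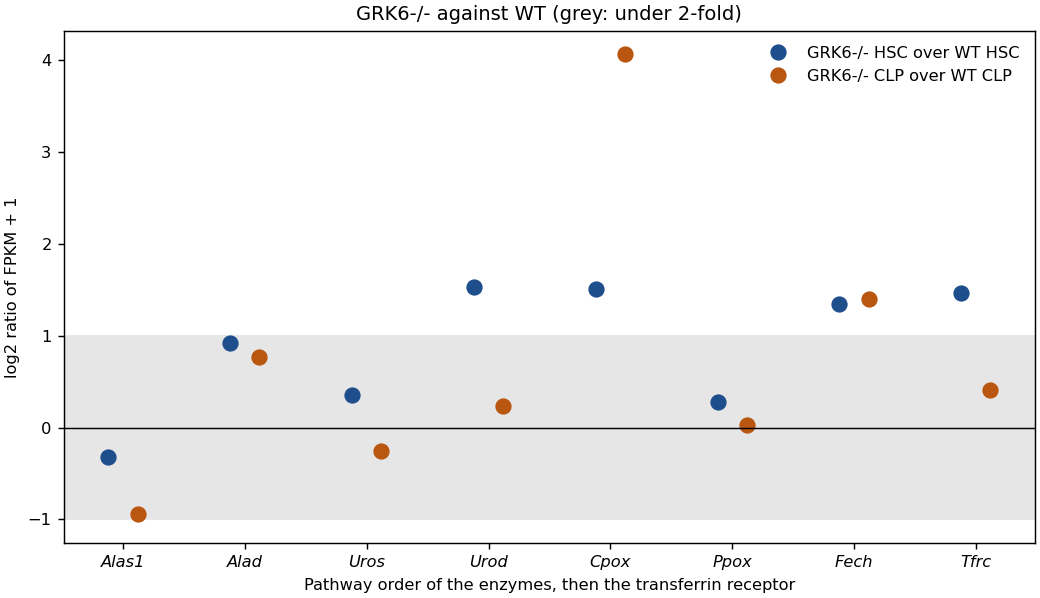
Points give the log2 ratio of FPKM + 1 between GRK6-/- and WT, in HSC (blue) and CLP (orange), with the enzymes in pathway order and Tfrc last. In CLP, Cpox at 4.06 stands far above Fech at 1.4 and the others, which lie inside the grey band of under 2-fold.

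The comparison of GRK6-/- with WT used the log2 ratio of FPKM + 1, and a gene was counted when the ratio reached 1 or -1, that is 2-fold. In HSC, Urod, Cpox, Fech and Tfrc passed, so 4 of 8 were higher and 0 lower, where 19.3% of all 11624 genes with a value were higher and 18.0% were lower. Among genes with a mean of at least 10 FPKM, 16.4% were higher. The log2 ratios were 1.53, 1.51, 1.34 and 1.46 for these 4, and Alad followed with 0.92. The median of the 8 was 1.13, against 0.05 over all genes. In CLP, only Cpox and Fech of the 8 passed, 2 higher and 0 lower, where 26.6% of all 11191 genes were higher and 23.4% lower, and 23.5% were higher among those with a mean of at least 10 FPKM. The median of the 8 was 0.33, against 0.05 over all genes. A share of 2 in 8 is close to that background, so the CLP count alone does not set these genes apart. Alas1 just missed the threshold in the other direction, with -0.94.

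The erythroid list behaved otherwise in the same comparisons. In HSC, 13 of 19 genes with a value were past 2-fold higher and 0 lower, with a median of 2.07. In CLP, 18 of 20 were higher and 1 lower, with a median of 3.87. The erythroid median was therefore larger in CLP than in HSC, whereas that of the 8 heme and iron genes was smaller. This difference was not tested, since 1 library per group leaves no error for it. It also rests on unlike levels in WT CLP, where 7 of the 20 erythroid genes and 0 of the 8 had no row. Both GRK6-/- libraries were above both WT libraries for 16 of the 20 erythroid genes and for 3 of the 8, Alad, Urod and Cpox, against 14.4% of all genes. Past 2-fold in both populations were Cpox and Fech, 2 of 8, against 5.66% of 10398 genes. At any size, 6 of 8 were higher in GRK6-/- in both populations, against 25.9%, with Alas1 and Uros the exceptions.

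**Figure D3:**
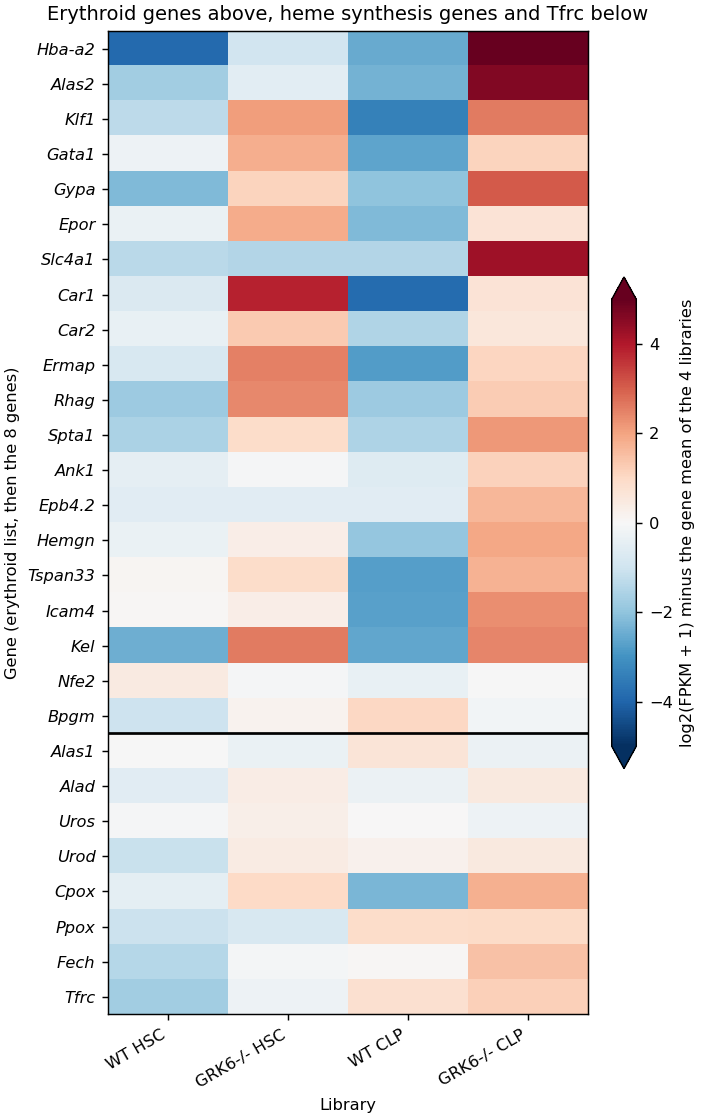
Colours give log2(FPKM + 1) minus the mean of the 4 libraries for each gene, with the 20 erythroid genes above the black line and the 8 genes below it, 1 column per library. Of the erythroid rows 18 are highest in a GRK6-/- column, as are all of the 8 genes but Alas1. Alas1, Alad and Uros are nearly white, and Ppox is red in both CLP columns.

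The sizes also differed between the 2 GRK6-/- libraries. From GRK6-/- HSC to GRK6-/- CLP, Hba-a2 was 324-fold higher, while Alad and Urod were 1.07-fold and 1.05-fold higher, neither beyond counting error. Cpox was 1.75-fold higher (1.42 to 2.15). Fech and Tfrc were 3.03-fold and 2.82-fold higher, but both were also higher in CLP than in HSC among the WT libraries, where the erythroid sum was lower in CLP. The level of Hba-a2 and the levels of the enzymes thus did not rise in proportion. Hba-a2 did not stand for the erythroid list as a whole. Of its 20 genes, 9 were past 2-fold higher in GRK6-/- CLP and 4 lower, with a median log2 ratio of 0.68. Of the 8 genes, 3 were higher and 0 lower, with a median of 0.43. Over all genes, 22.3% were higher and 23.4% lower. Of the regulators, Klf1 was 1.42-fold higher and Gata1 1.67-fold lower in GRK6-/- CLP than in GRK6-/- HSC.

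**Figure D4:**
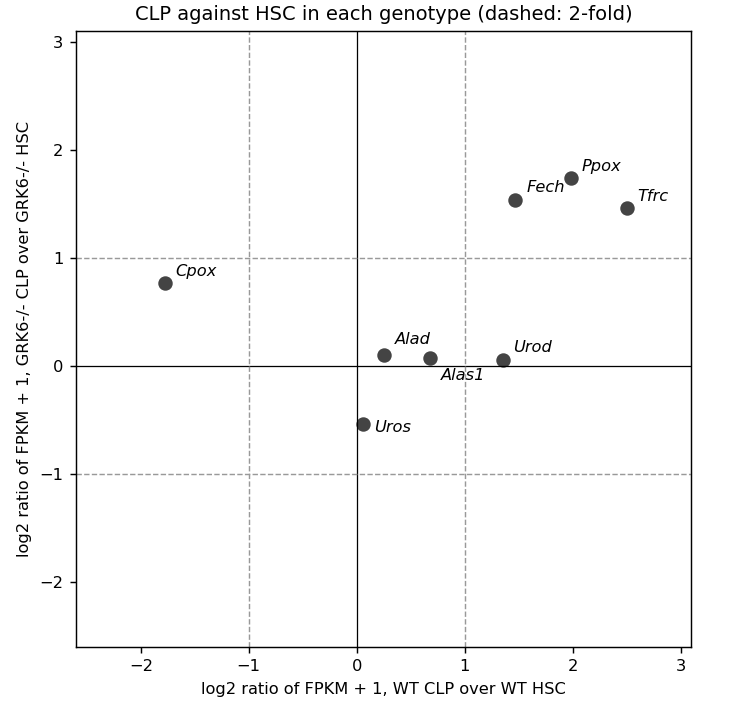
Each point is 1 of the 8 genes, with the log2 ratio of FPKM + 1 of CLP over HSC in WT on the x axis and in GRK6-/- on the y axis. Fech, Ppox and Tfrc lie past 2-fold in both genotypes, at 1.47, 1.98 and 2.5 in WT, and Cpox changes side, from -1.78 in WT to 0.77 in GRK6-/-.

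CLP were compared with HSC within each genotype. Among WT libraries, Urod, Ppox, Fech and Tfrc were past 2-fold higher in CLP, 4 of 8, where 21.8% of 11202 genes were. Cpox was past 2-fold lower, 1 of 8, where 24.7% were. The WT HSC level of Cpox was 8.27-fold that of WT CLP (3.72 to 22.6). Among GRK6-/- libraries, Ppox, Fech and Tfrc were higher, 3 of 8, where 22.3% of 11708 genes were, and 0 were lower, where 23.4% were. Both CLP libraries were above both HSC libraries for these same 3 genes, against 14.2% of all genes and 17.6% of the 8246 with a row in every library. For Fech, WT CLP was not above GRK6-/- HSC beyond counting error. These comparisons share libraries with those of genotype and are not separate support for them.

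The effects of genotype and of population were also tested together, in an additive fit over the 4 libraries with limma on log2(FPKM + 1). It used 10324 genes with a mean of at least 1 FPKM and had 1 residual degree of freedom per gene, so that any difference of the genotype effect between populations counted as error. For genotype, 7 genes (0.0678%) had a Benjamini-Hochberg adjusted p under 0.05, and 30 (0.291%) did for population, and none of the 8 genes was among them. The largest genotype effect was that of Cpox, 2.79 on the log2 scale (95% interval 0.33 to 5.25, higher in GRK6-/- in both populations), with an adjusted p of 0.852 by limma. That of Fech was 1.37 (-0.53 to 3.27). The largest population effects were those of Tfrc, 1.98 (0.28 to 3.67), and Ppox, 1.86 (0.28 to 3.43), both higher in CLP in both genotypes, with adjusted p of 0.608 and 0.607 by limma. The intervals are wide, since the error of each gene rests on 1 degree of freedom and the trend over all genes.

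The rest of the heme pathway was described with a list of 16 genes, all with a row. In GRK6-/- against WT HSC, 6 were past 2-fold higher and 1 lower, with a median log2 ratio of 0.35, and in CLP 9 were higher and 4 lower, with a median of 1.45. The shares over all genes were 19.3% higher and 18.0% lower in HSC and 26.6% and 23.4% in CLP, so that the 4 of 16 lower in CLP are near the background. The leading gene was Blvrb, a biliverdin reductase gene, with 20.6 FPKM in WT and 313 in GRK6-/- HSC, and 1.27 in WT and 354 in GRK6-/- CLP. Hmox1, the inducible heme oxygenase that opens the ring, had its highest level in WT CLP, with 7.58 FPKM, against 0.177 in GRK6-/- HSC, 0.244 in GRK6-/- CLP and no row in WT HSC. Alas2 is on this list as well as on the erythroid list.

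The iron list held 15 genes of uptake, storage and control, of which 14 had a row. In HSC 3 were higher and 2 lower in GRK6-/-, and in CLP also 3 higher and 2 lower, with median log2 ratios of 0.09 and 0.13. In both populations 3 of 14 higher is near the shares of all genes, 19.3% in HSC and 26.6% in CLP. Slc11a2, which moves iron out of the endosome after transferrin uptake, had 0.578 FPKM in WT and 12.7 in GRK6-/- HSC, and 0.152 in WT and 21.4 in GRK6-/- CLP, in the same order as Cpox. Steap3, the reductase that prepares the iron for that transport, had 3.06, 9.81, 5.78 and 1.32 FPKM, so that it was lowest in GRK6-/- CLP. Trf, transferrin itself, had 33.7, 31.9 and 27.8 FPKM in the first 3 libraries and no row in GRK6-/- CLP. Ireb2, an iron regulatory protein that binds the hairpins printed above, had 8.47 FPKM in WT and 6.75 in GRK6-/- HSC, and 5.78 in WT and 18.8 in GRK6-/- CLP. Its highest library was also the highest for Tfrc, but the second highest for Tfrc, WT CLP, had the lowest Ireb2. Aco1, the gene of another iron regulatory protein, had 8.18, 6.44, 6.61 and 3.13 FPKM, lowest in GRK6-/- CLP. Whether either protein acted on Tfrc here was not tested. Fth1, with a hairpin in its 5′ UTR, had 1535, 1739, 2084 and 2034 FPKM and so varied little.

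Iron-sulfur clusters are the other main product of mitochondrial iron, and all 12 genes of their assembly list had a row. In HSC 3 were higher and 3 lower in GRK6-/- (median log2 ratio -0.08), and in CLP 5 were higher and 4 lower (median 0.36), where the shares over all genes were 19.3% and 18.0% in HSC and 26.6% and 23.4% in CLP. Fdx1, a ferredoxin that passes electrons to this pathway, had 15.7, 95.2, 26.1 and 172 FPKM in HSC and then CLP, with WT before GRK6-/- in each. Its reductase Fdxr had 8.77, 7.63, 8.77 and 0.404 FPKM, so the 2 partners were at opposite ends in GRK6-/- CLP. Hscb, a co-chaperone of the assembly, was lowest in GRK6-/- CLP with 21.1 FPKM.

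For each of the 8 genes the nearest patterns were sought among 6819 genes, by the Euclidean distance of mean-centred log2(FPKM + 1) over the 4 libraries. For Cpox, Pus7 lay at 0.32 and Add3 at 0.55. Tsr1 and Pdzd11 were nearest to Tfrc at 0.17 and 0.22, and Mcat and Zfand6 to Fech at 0.32 and 0.35. For Alas1 these were Cnp and Eif4e2, for Alad Mrpl23 and Sdhd, for Uros Bphl and Strap, for Urod Ccdc53 and Ubr2, and for Ppox Tmem181a and Haus2, at distances from 0.02 to 0.25. With 4 libraries many genes share any one order, so a small distance is only a description.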

How the data were processed

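RNA-seq of 4 pooled libraries was analysed, 1 per population and genotype. The authors aligned reads to mm9 with TopHat 1.4.0, per the submitters' processing notes, and deposited FPKM, 1 value per gene and library. Counting settings, including strand, are not given in the sources used here.

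Ratios of FPKM + 1 were taken on the log2 scale and called at 2-fold. Rows of 1 symbol were summed, and a gene without a row was set to 0. Genes named in a joint row of any library were left out, 333 of 12750. Depth was estimated from the steps between low FPKM values, since 1 fragment in a 2 kb transcript is worth 0.112 to 0.185 FPKM at the estimated depths, and of low values up to 3 fragments 84.6% to 92.5% lay within 10% of a step (43.2% to 54.1% of all low values). Exon lengths came from GENCODE vM1. The additive fit used limma 3.58.1 with a mean-variance trend and was chosen after the data had been seen. The computation was tested on simulated data.

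The 8 genes, the lists and the rules were chosen with earlier results of these data known. Named were the 8 genes, Alas2, globins, Klf1, Gata1, up to 4 genes per list with the largest ratio between the CLP libraries, and the 2 nearest genes of each of the 8. Genes named for a shared exon, Grk6, Aco1, and Il7r as the sorting marker were added after their values were seen. Some items are not reported here and were left out of the lists and of the search for nearest genes. Alternatives were the pseudocount, scaling, filters, the threshold and joint rows. Tables were computed in pandas 2.3.3 and numpy 2.4.6, with intervals from scipy 1.17.1 and figures from matplotlib 3.10.9, under Python 3.11.15 and R 4.3.3.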

Additional observations from a re-analysis of the deposited data

Results flagged for a closer look

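Of 102 genes on the lists or among the 8, 35 had GRK6-/- against WT log2 ratios of opposite sign in HSC and CLP. Given here are Uros, as 1 of the 8 genes, and the 10 list genes past 2-fold in both directions, a choice made after their values were seen. These differences were not tested, since each group had 1 library. Uros had 0.35 in HSC and -0.25 in CLP, both within counting error. Of the iron genes, Steap3, the endosomal iron reductase, had 1.41 in HSC and -1.55 in CLP, and Fbxl5, which controls the iron regulatory proteins, had -1.57 and 1.37. Abcb10, a mitochondrial transporter of the heme list, had -1.06 and 1.99. Of the iron-sulfur list, Lyrm4 had -1.09 and 1.30 and Iba57 had 1.53 and -1.06. Bpgm, a red cell enzyme, had 1.19 and -1.16. The platelet genes Gp9, Itga2b and Pf4 had -1.86, -3.21 and -6.26 in HSC and 4.65, 3.74 and 1.69 in CLP, with no row for Pf4 in GRK6-/- HSC. Mecom, a stem cell transcription factor, had -1.02 in HSC and 1.60 in CLP.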

How the results depend on the processing

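With 1 library per group, no error between mice was measured, no replicate could be left out, and the intervals rest on estimated depths. No paired analysis was possible because each group had 1 library. Of 44 recomputed counts of the 8 genes past 2-fold, 40 stayed within 1.5 times the reported count. With a log2 threshold of 1.5, the count was 2 for GRK6-/- against WT HSC, 1 for GRK6-/- against WT CLP and 3 for CLP against HSC in WT. With FPKM of at least 1 required in both libraries, it was 1 for GRK6-/- against WT CLP, since Cpox, at 0.503 FPKM in WT CLP, left. Of 192 recomputed log2 ratios, 11 moved and 0 changed sign. Scaling to a common sum moved the median of all genes by -0.12 to 0.17 on the log2 scale, or by -0.12 to 0.2 without the erythroid list, which also carried Cpox in GRK6-/- CLP against GRK6-/- HSC past 2-fold, from 0.77 to 1.03. Upper-quartile scaling, joint rows and the additive fit were added after seeing the data.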
